A study of Homo sapiens with 7 samples.

Results

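The genes described here encode 10 nuclear factors that copy mitochondrial DNA, transcribe it, modify or protect its transcripts or regulate those steps. They were chosen by name, with earlier results of these data known. POLRMT, TFAM and TFB2M serve transcription, TFB1M methylates the small mitochondrial rRNA, and POLG and TWNK serve replication. LRPPRC and SLIRP serve RNA stability, and NRF1 and PPARGC1A control of the nuclear genes concerned. All 10 were found among the 19978 genes of the deposited table. Their levels were read in poly(A)-selected RNA from HEK-293, an established human embryonic kidney cell line, after 48 h in 1 of 3 conditions. Control cells (2 samples) had DMSO, the vehicle, in medium of pH 7.4. Acidosis was medium titrated to pH 6.6, with DMSO (3 samples). The third group had medium of pH 7.4 with DMSO and SRPIN340 (2 samples), an inhibitor of the kinases that phosphorylate SR splicing factors, at 10 µM. The study set acidification beside this inhibitor to compare their effects on RNA. All cells are of a single line, each sample is a separate biological repeat, and the inhibitor was given at normal pH only.

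Human mitochondrial DNA is transcribed from both strands into long transcripts by a single-subunit RNA polymerase, POLRMT, which needs TFAM to bend the promoter DNA and TFB2M to melt it. The transcripts are cut into mRNAs, tRNAs and rRNAs, and a complex of LRPPRC and SLIRP binds the mRNAs, which keeps them stable and supports their polyadenylation. All these proteins are made from nuclear genes, many of which carry promoter sites for the transcription factor NRF1 (nuclear respiratory factor 1) and for GABP, a factor of the ETS family also known as NRF2.

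Promoter sequence is shown first for the 5 genes whose window held the core of either site, since NRF1 is itself among the 10 genes. The windows are RefSeq's 250 bases before the start site (GRCh38.p14), and 8 of the 10 genes had one. The NRF1 core was searched as GCGCANGCG and the GABP core as CCGGAAG, each on both strands. Among all 35116 RefSeq windows of this length, 6.56% held the NRF1 core and 8.52% the GABP core. In that count a gene with several starts could appear more than once. Each of the 8 genes had 1 window, the nearest to its canonical GENCODE start. In the lines that follow, capitals mark these matches, and each sequence is given 5′ to 3′ on the strand of its gene. The lines cover positions -140 to -1 relative to the start for POLRMT (chr19:633538-633677, minus strand), TFB1M (chr6:155314485-155314624, minus strand) and TFB2M (chr1:246566262-246566401, minus strand), -140 to -46 for TFAM (chr10:58385270-58385364, plus strand) and -140 to -13 for SLIRP (chr14:77707963-77708090, plus strand), where the stretch begins in the first exon of ALKBH1 on the other strand.
POLRMT: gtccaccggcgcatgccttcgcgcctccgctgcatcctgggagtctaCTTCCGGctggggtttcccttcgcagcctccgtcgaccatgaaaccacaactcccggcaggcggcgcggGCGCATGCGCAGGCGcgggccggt
TFAM: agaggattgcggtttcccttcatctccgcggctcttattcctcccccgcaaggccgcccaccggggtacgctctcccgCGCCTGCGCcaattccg
TFB2M: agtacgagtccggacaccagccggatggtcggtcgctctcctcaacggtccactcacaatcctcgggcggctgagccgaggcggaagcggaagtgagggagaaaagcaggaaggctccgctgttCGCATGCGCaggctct
TFB1M: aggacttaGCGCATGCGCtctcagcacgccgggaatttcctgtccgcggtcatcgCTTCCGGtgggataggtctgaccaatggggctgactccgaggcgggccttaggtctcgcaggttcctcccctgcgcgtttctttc
SLIRP: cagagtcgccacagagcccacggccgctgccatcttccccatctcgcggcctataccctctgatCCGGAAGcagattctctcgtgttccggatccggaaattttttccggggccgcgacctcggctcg
The NRF1 core was present in 4 of the 8 windows, those of POLRMT, TFAM, TFB1M and TFB2M. In POLRMT it occurred 3 times in overlapping positions, between 24 and 10 bases before the start. TFB1M held a palindromic match, which reads as the core on both strands, between 132 and 123 bases before the start. TFB2M had it 16 to 8 bases before the start, and TFAM 62 to 54 bases before. The GABP core was found in 3 windows, 93 to 87 bases before the start in POLRMT, 85 to 79 in TFB1M and 76 to 70 in SLIRP. Only these exact strings were searched, so a window without a match may still hold a looser form of either site. POLG, LRPPRC and PPARGC1A had neither core in their windows, and the PPARGC1A window lies at a RefSeq start other than the one used for its length. TWNK and NRF1 had no window.

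Library totals ranged from 13615816 to 24110460 counts, and 2 of the acidosis libraries were the shallowest. The share of counts in the 100 most abundant genes was 15.2% to 15.4% in libraries of pH 7.4 and 24.1% to 24.8% in acidosis. Levels are given as CPM (edgeR), counts put on a common library size by the TMM method, whose factors were 1.17 to 1.21 in control and SRPIN340 and 0.782 to 0.8 in acidosis. On this scale the 14863 genes tested had a median log2 fold change of -0.05 in acidosis (quartiles -0.83 and 0.66), which scaling by total count only moved to -0.63. A change in acidosis is therefore stated relative to the typical gene. The 7 HEK-293 markers were all detected, with sums of 1035 to 1118 CPM in control, 1062 to 1107 CPM with SRPIN340 and 2966 to 3010 CPM in acidosis, where 3 of them rose and 4 fell. Of 6 markers of other cell types, CD3E was at 0 in every library, and their summed level was 3.93 and 5.44 CPM in control, 5.79 and 7.63 CPM with SRPIN340 and 2.85 to 3.15 CPM in acidosis. Of the 4 that were abundant enough to test in acidosis, PTPRC of leukocytes rose (1 and 8 counts in control, 7 to 12 in acidosis, adjusted p = 0.0473, not passed in DESeq2) and COL3A1 of fibroblasts fell 1.96-fold (adjusted p = 0.0142). PECAM1 and DES did not pass, at log2 fold changes of -1.35 and -0.90, and the part of these markers in the results was not tested.

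In acidosis, 5 of the 10 factor genes fell and none passed as higher. The falls were in SLIRP, PPARGC1A, TFB1M, LRPPRC and NRF1, in order of size, and ranged from 4.04-fold for SLIRP to 1.34-fold for NRF1. A gene is said to have passed where the quasi-likelihood test of edgeR gave an adjusted p under 0.05 (Benjamini-Hochberg, over all genes tested). Every adjusted p below is from that fit unless another tool is named. Among all genes tested, 34.2% passed as lower and 32.5% as higher. At an unadjusted p under 0.05, edgeR found 6 factor genes lower and 0 higher, and DESeq2 called 4 lower and 0 higher after adjustment. Only SLIRP also passed the limit of 1 on the log2 scale, which 19.1% of all genes passed as lower and 14.4% as higher. The median log2 fold change over the 10 was -0.38. Under total-count scaling 9 of the 10 passed as lower, all but TFB2M, where 55.0% of all genes tested did. In RNA from a whole culture, less RNA per cell and fewer cells that hold it cannot be told apart.

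**Figure D1:**
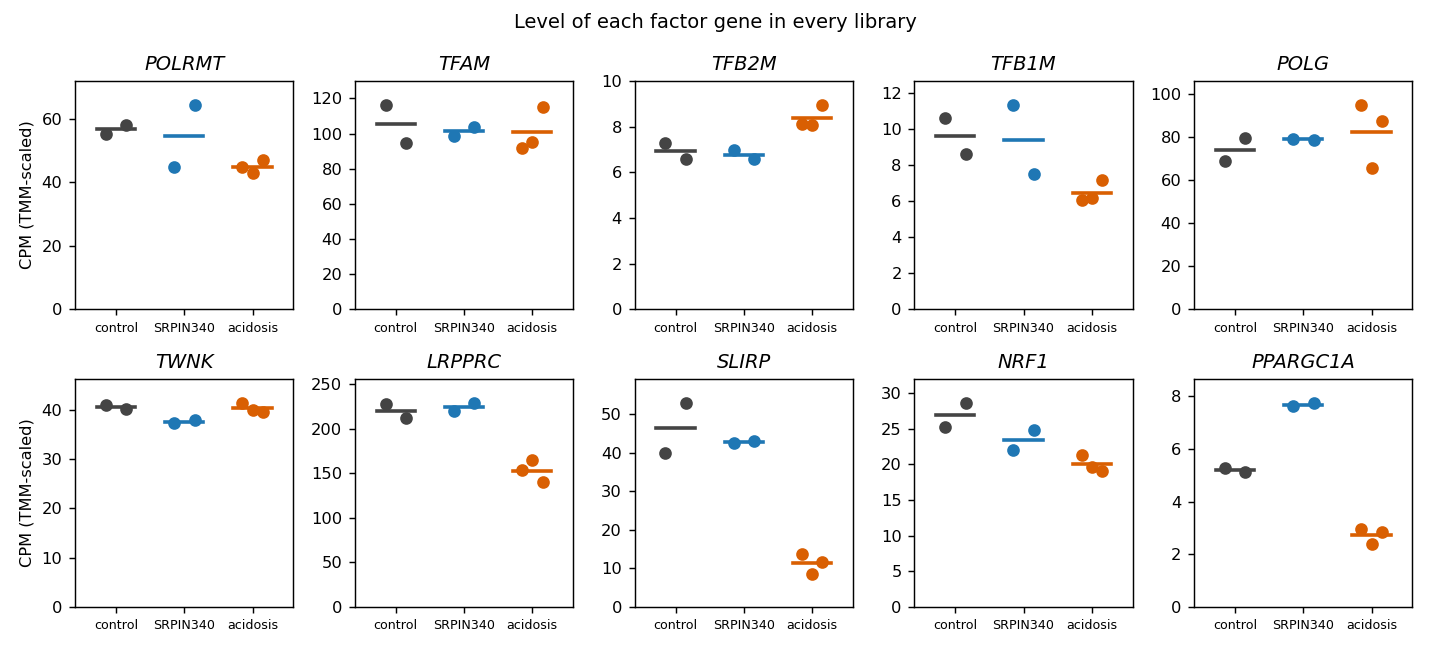
Level of each factor gene in every library, in CPM on a linear axis from 0, with 1 point per library and a bar at the group mean (control and SRPIN340 n = 2, acidosis n = 3). The acidosis points of SLIRP lie between 8.63 and 13.8 CPM, below all control and SRPIN340 points, while those of TFAM, POLG and TWNK overlap the control points.

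POLRMT, the mitochondrial RNA polymerase, lies on chromosome 19 (bases 617221 to 633537, minus strand, GRCh38). Its level was 55.4 and 58.2 CPM in control, 44.9 and 64.3 CPM with SRPIN340, and 44.8, 43.1 and 47 CPM in acidosis. All acidosis values lay below both control values, but the SRPIN340 samples spread more widely than the gap between these groups. The log2 fold change in acidosis was -0.34 (SE 0.14, 95% confidence interval -0.65 to -0.02), with an adjusted p of 0.0569. This gene stood close to the threshold. The adjusted p was 0.0103 when only control and acidosis were fitted, 0.0405 with no expression filter and 0.000229 under total-count scaling. It was 0.0674 with DESeq2, 0.0772 with RLE scaling, and 0.104, 0.111 and 0.0765 without acidosis replicate 1, 2 or 3. Without either SRPIN340 sample the log2 fold change stayed at -0.34, and without control replicate 1 or 2 it was -0.38 or -0.32.

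TFAM, which packages mitochondrial DNA and bends its promoters, lies on chromosome 10 (bases 58385345 to 58399220, plus strand). Control samples had 116 and 94.9 CPM, SRPIN340 samples 98.6 and 104 CPM, and acidosis samples 91.6, 95.3 and 115 CPM. The groups overlapped throughout. The log2 fold change in acidosis was -0.07 (95% confidence interval -0.33 to 0.20, adjusted p = 0.634), an interval that leaves out a change of 1 in either direction.

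TFB2M and TFB1M are paralogues related to bacterial rRNA methyltransferases. TFB2M, the initiation factor that melts the promoter (chromosome 1, bases 246540561 to 246566261, minus strand), was at 7.31 and 6.6 CPM in control, 7 and 6.57 CPM with SRPIN340, and 8.14, 8.08 and 8.94 CPM in acidosis. Every acidosis value lay above every value of the other groups, on 88 to 137 counts a library. The test did not pass, at a log2 fold change of 0.27 (SE 0.168, interval -0.11 to 0.65, adjusted p = 0.183), and the sign depends on scaling, with -0.31 under total-count scaling.

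TFB1M, which methylates the small mitochondrial rRNA, was lower in acidosis. Its level was 10.6 and 8.6 CPM in control, 11.3 and 7.48 CPM with SRPIN340, and 6.06, 6.15 and 7.14 CPM in acidosis. The acidosis samples lay below all others, although each pair at pH 7.4 was spread. The fall was 1.49-fold (log2 fold change -0.57, interval -1.06 to -0.09, adjusted p = 0.0398). That call was lost with DESeq2 (adjusted p = 0.0739), without control replicate 1 (0.229) and without acidosis replicates 1 (0.0953) or 2 (0.0746). TFB1M (chromosome 6, bases 155256134 to 155314493, minus strand) shares 1240 exonic bases with TIAM2 on the opposite strand and 591 with a long non-coding RNA on its own strand. The strand setting of the counting is not given in the sources used here, so its counts are uncertain to that extent.

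POLG, the catalytic subunit of the DNA polymerase that copies mitochondrial DNA, had 68.8 and 79.8 CPM in control, 79.2 and 78.8 CPM with SRPIN340, and 94.8, 65.5 and 87.4 CPM in acidosis. Acidosis replicate 2 was the lowest of all 7 samples and replicate 1 the highest. The log2 fold change was 0.16 (SE 0.142, interval -0.16 to 0.48, adjusted p = 0.358). Without acidosis replicate 2 it was 0.30 with an adjusted p of 0.023, and under total-count scaling it was -0.42 with an adjusted p of 0.0201, so neither its direction nor its call held across these settings. POLG (chromosome 15, bases 89305198 to 89334861, minus strand) shares exonic bases with FANCI on the opposite strand (431 bases) and with POLGARF, a second reading frame of its own transcript (783 bases).

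TWNK, the helicase Twinkle that unwinds mitochondrial DNA ahead of the polymerase, had the smallest change in acidosis of the 10. It lies on chromosome 10 (bases 100987367 to 100994403, plus strand). Its level was 41 and 40.1 CPM in control, 37.2 and 37.9 CPM with SRPIN340, and 41.3, 40 and 39.6 CPM in acidosis. Control and acidosis overlapped almost fully, and the SRPIN340 samples lay below both. The log2 fold change in acidosis was -0.01 (interval -0.21 to 0.19, adjusted p = 0.929), while total-count scaling moved it to -0.58 (adjusted p = 0.000225), about as far as the typical gene.

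LRPPRC and SLIRP, which bind mitochondrial mRNAs as a complex, both fell. LRPPRC, a large protein of pentatricopeptide repeats, lies on chromosome 2 (bases 43886224 to 43996226, minus strand) and was the most abundant of the 10 in counts. It had 228 and 212 CPM in control, 220 and 229 CPM with SRPIN340, and 154, 165 and 140 CPM in acidosis. All acidosis samples lay below all samples of the other groups. The fall was 0.53 on the log2 scale, or 1.44-fold (SE 0.0801, interval -0.71 to -0.35, adjusted p = 0.000254), and it passed under all 13 alternatives.

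SLIRP, a small RNA-binding protein with a single RNA recognition motif, showed the largest change of the 10. Its gene lies on chromosome 14 (bases 77708071 to 77761104, plus strand). Control samples had 40 and 52.9 CPM, SRPIN340 samples 42.6 and 43.1 CPM, and acidosis samples 13.8, 8.63 and 11.7 CPM. The gap between the acidosis and control values was wider than the spread within either group. The level was 4.04-fold lower in acidosis (log2 fold change -2.01, SE 0.183, interval -2.43 to -1.60, adjusted p = 7.18e-06). Leaving out any replicate kept the log2 fold change between -2.21 and -1.82.

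NRF1, the transcription factor whose sites appear in the promoters above, lies on chromosome 7 (bases 129611720 to 129757082, plus strand). It had 25.3 and 28.6 CPM in control, 22 and 24.8 CPM with SRPIN340, and 21.3, 19.7 and 19.1 CPM in acidosis. The acidosis samples were the lowest of the 7. NRF1 fell by 0.42 on the log2 scale (1.34-fold, SE 0.123, interval -0.70 to -0.15, adjusted p = 0.0123), a call that was lost without control replicate 2 (adjusted p = 0.0916).

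PPARGC1A encodes PGC-1α, a coactivator that works with NRF1 and nuclear receptors to raise the number of mitochondria. The gene (chromosome 4, bases 23755041 to 23904089, minus strand) was the rarest of the 10, with 26 to 50 counts in the acidosis libraries and 146 in each control. Its level was 5.26 and 5.13 CPM in control, 7.63 and 7.74 CPM with SRPIN340, and 2.97, 2.39 and 2.84 CPM in acidosis. The 3 groups did not overlap, with SRPIN340 highest and acidosis lowest. In acidosis it fell 1.89-fold (log2 fold change -0.92, SE 0.21, interval -1.39 to -0.45, adjusted p = 0.00337), and the fall passed under all 13 alternatives.

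**Figure D2:**
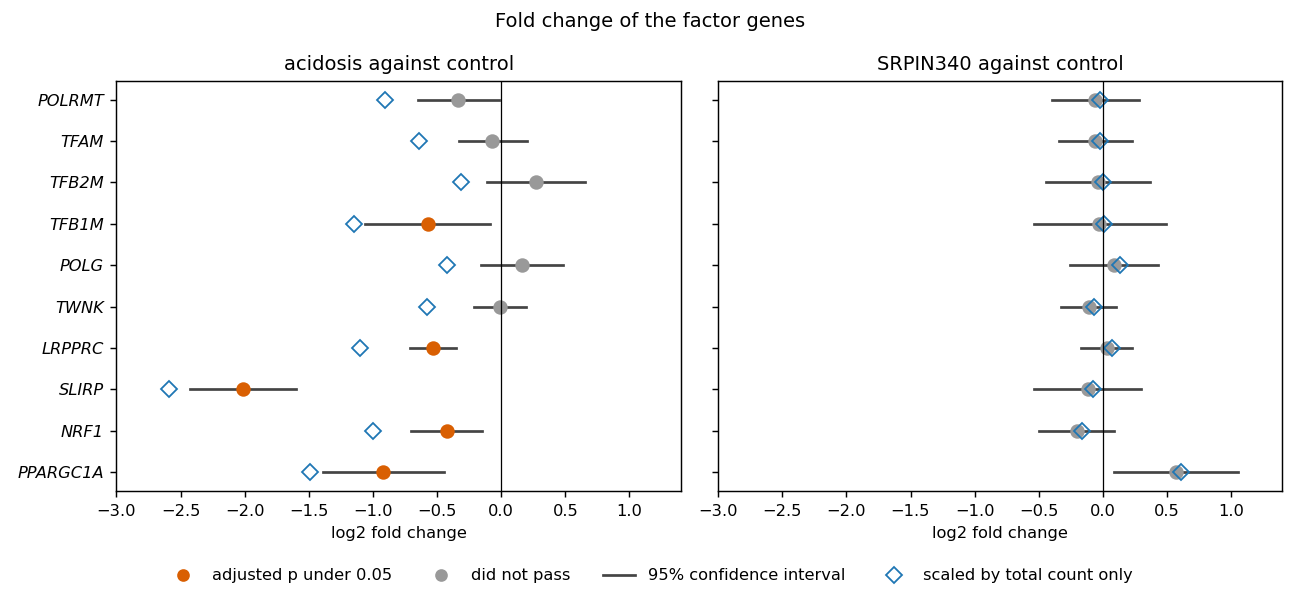
Log2 fold change of each factor gene against control (horizontal axis), in acidosis on the left and with SRPIN340 on the right. Filled circles are edgeR estimates with TMM scaling, orange where the adjusted p was under 0.05 and grey where it was not, bars are 95% confidence intervals, and open diamonds are the estimates with scaling by total count only. In acidosis the estimates run from -2.01 (SLIRP) to 0.27 (TFB2M) and the diamonds lie further left for every gene, while with SRPIN340 circles and diamonds nearly coincide.

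To compare levels between genes, CPM were divided by the length of each gene's canonical GENCODE transcript in kilobases, and the values in this paragraph are such levels. In control, SLIRP stood highest at 124 ± 24.4 CPM per kb (SD, n = 2), on a transcript of only 376 bases. It was followed by LRPPRC at 33.3 ± 1.69, TFAM at 20.9 ± 2.91, POLG at 16.7 ± 1.74, POLRMT at 15.1 ± 0.531, TWNK at 11.2 ± 0.177 and NRF1 at 7.66 ± 0.675. TFB2M (3.9 ± 0.283), TFB1M (3.42 ± 0.494) and PPARGC1A (0.826 ± 0.0151) were the lowest. Samples of neighbours in this order overlapped for POLG with POLRMT and for TFB2M with TFB1M. With SRPIN340 the order was the same, and the only overlapping neighbours were TFB2M and TFB1M. The order also held in acidosis by group means, but SLIRP had dropped to 30.2 ± 6.89 CPM per kb (n = 3), and its samples overlapped those of LRPPRC (23.1 ± 1.9). LRPPRC in turn overlapped TFAM (20 ± 2.49), and TFAM overlapped POLG (18.5 ± 3.42). TFB2M (4.7 ± 0.271) and TFB1M (2.3 ± 0.214), which overlapped in both other groups, stood apart in acidosis.

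Ratios of partner genes within a library do not depend on the scaling between libraries, and 4 pairs were compared as log2 ratios of counts. LRPPRC to SLIRP was 2.51 and 2.00 in control, 2.37 and 2.41 with SRPIN340, and 3.48, 4.24 and 3.58 in acidosis. All acidosis libraries lay above all others, and the mean log2 ratio was 1.51 higher than in control, a 2.84-fold shift towards LRPPRC. The exact two-sided permutation test gave p = 0.2, the smallest that 3 samples against 2 allow, so no pair could pass it in this design.

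TFB2M to TFB1M gave log2 ratios of -0.53 and -0.38 in control, -0.69 and -0.19 with SRPIN340, and 0.43, 0.39 and 0.32 in acidosis. TFB1M had more counts in every library at pH 7.4 and TFB2M in every library at pH 6.6. The difference was 0.83 (1.78-fold, exact permutation p = 0.2). For POLRMT to TFAM the log2 ratios of acidosis and control overlapped (difference -0.27, exact permutation p = 0.4). The same was true of POLG to TWNK (difference 0.15, exact permutation p = 0.6), and with SRPIN340 that ratio lay above control by 0.20 (exact permutation p = 0.33, the smallest for 2 against 2).

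**Figure D3:**
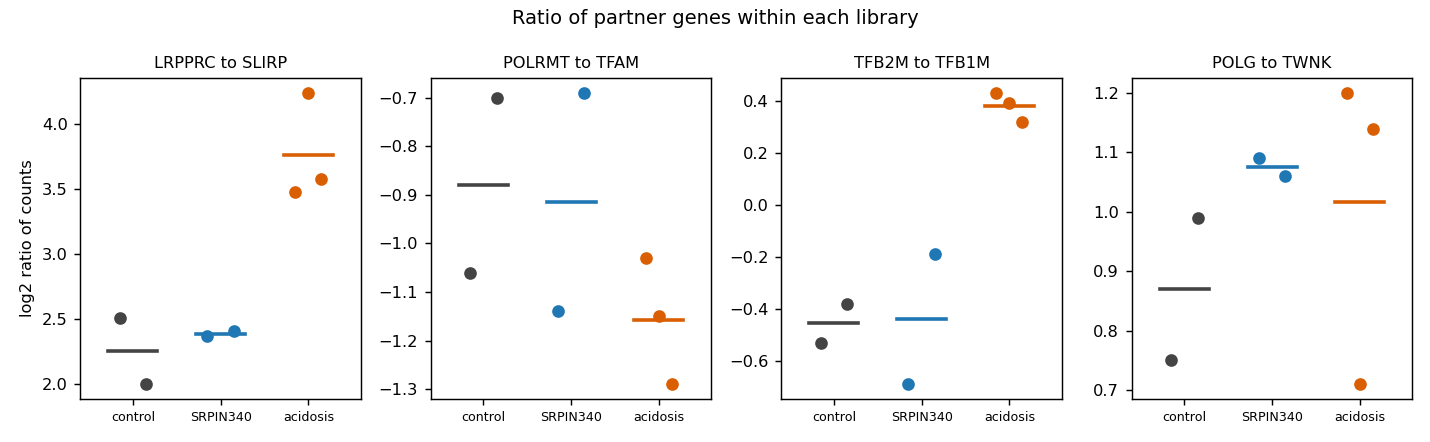
Log2 ratio of the counts of partner genes within each library, 1 point per library with a bar at the group mean and a separate vertical scale in each panel (control and SRPIN340 n = 2, acidosis n = 3). The 3 acidosis points lie above all others for LRPPRC to SLIRP (3.48 to 4.24) and for TFB2M to TFB1M (0.32 to 0.43), and overlap the control points for the other 2 pairs.

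With SRPIN340, 0 of the 10 factor genes passed in either direction, where 0.767% of all genes tested passed as higher and 1.53% as lower. Their log2 fold changes ran from -0.20 (NRF1) to 0.57 (PPARGC1A), with a median of -0.05 beside 0.0024 over all genes. At an unadjusted p under 0.05, edgeR found 1 higher and 0 lower, and DESeq2 found 0 of either. The 1 was PPARGC1A, whose SRPIN340 samples lay above control by 1.48-fold (interval 0.09 to 1.05 on the log2 scale, adjusted p = 0.209). DESeq2 gave no adjusted p for this gene in that comparison. For LRPPRC the interval was -0.17 to 0.23 and for TWNK -0.33 to 0.10. SLIRP, at a log2 fold change of -0.12, had the interval -0.54 to 0.30, which leaves out a fall of the size seen in acidosis. The interval was -0.54 to 0.49 for TFB1M and -0.40 to 0.28 for POLRMT, the genes whose SRPIN340 samples differed most from each other relative to their mean.

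Acidosis and SRPIN340 were then compared with each other in the same fit. Of the 10 factor genes, 4 were lower in acidosis and 0 higher, where 35.0% of all genes passed as lower and 32.8% as higher. At an unadjusted p under 0.05 the counts were also 4 and 0, and DESeq2 called 3 lower and 0 higher. The log2 fold change of acidosis against SRPIN340 was -1.90 for SLIRP (adjusted p = 1.07e-05), -0.56 for LRPPRC (adjusted p = 0.000168) and -0.55 for TFB1M (adjusted p = 0.0477). The TFB1M call was lost in 9 of 13 alternatives, among them DESeq2 (adjusted p = 0.0954), RLE scaling (0.0594), the fit of these groups alone (0.0529), and the fits without SRPIN340 replicate 1 (0.467), either control replicate (0.0588 and 0.0531) or any 1 acidosis replicate (0.0502 to 0.11). Under total-count scaling 9 of the 10 passed as lower here, where 56.9% of all genes tested did. PPARGC1A differed by more than in acidosis against control, at -1.48 (2.8-fold, interval -1.95 to -1.02, adjusted p = 0.000137), since the inhibitor and acid samples lay on opposite sides of control. NRF1, which had passed against control, did not pass here (-0.22, interval -0.50 to 0.06, adjusted p = 0.144).

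The 13 mRNAs encoded by mitochondrial DNA, the products of this machinery, all passed as lower in acidosis, where 34.2% of all genes tested did. Their summed level was 20965 and 20365 CPM in control, 19652 and 23881 CPM with SRPIN340, and 4064, 4325 and 3930 CPM in acidosis. Control exceeded acidosis 5.03-fold by these sums, and 7.49-fold with total-count scaling. Log2 fold changes ran from -3.20 for MT-CO1, a core subunit of cytochrome c oxidase (adjusted p = 8.85e-09), to -1.28 for MT-ND2, a subunit of complex I (adjusted p = 3.92e-07), with a median of -2.22. The log2 fold change of SLIRP (-2.01) lay inside this range, and the values of the other 9 factor genes, from -0.92 to 0.27, lay above it. With SRPIN340, 0 of the 13 passed in edgeR's test, where 0.767% of all genes tested passed as higher and 1.53% as lower. At an unadjusted p under 0.05 edgeR found 4, 2 each way, and DESeq2 called 1 lower after adjustment. The libraries were made by poly(A) capture, so counts of mitochondrial mRNAs depend on their tails as well as on their amount, and the part of this step in the fall was not tested.

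Genes with related roles were counted in lists of the same pathway, which were also chosen with earlier results of these data known. All 6 genes of the list for elongation and termination of mitochondrial transcription fell in acidosis, beside 34.2% of all genes tested. Their median log2 fold change was -1.05. The list held TEFM, MTRES1 and the family MTERF1 to MTERF4, which were not sorted further by role. The largest falls were in MTRES1, a mitochondrial RNA-binding protein (13.5 CPM in control, 2.19 in acidosis, log2 fold change -2.62, adjusted p = 1.03e-06), and MTERF1, a termination factor (-1.79, adjusted p = 7.74e-05). TEFM, the elongation factor that binds POLRMT, fell 1.44-fold (adjusted p = 0.0267) and is named after its value was seen.

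Among 22 genes for mitochondrial RNA processing and decay, 6 rose and 10 fell, with a median of -0.16, where 32.5% of all genes tested rose and 34.2% fell. MTPAP, the poly(A) polymerase that adds the tails, rose 3.52-fold (35.8 to 126 CPM, adjusted p = 3.69e-07), and TBRG4, a FASTK family RNA-binding protein, rose 3.07-fold (adjusted p = 3.01e-07). PTCD2, a pentatricopeptide repeat protein, fell 4.21-fold (adjusted p = 4.51e-06), and TRUB2, a pseudouridine synthase, fell 4.17-fold (adjusted p = 5.15e-07). TRUB2 and PNPT1, a subunit of the mitochondrial RNA degradation complex, were also lower with SRPIN340. Log2 fold changes there were -0.62 and -0.66 (adjusted p = 0.0443 and 0.0354), and DESeq2 called 3 genes of this list lower.

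For replication and repair of mitochondrial DNA, 3 of 10 genes rose and 4 fell (median -0.35), shares near the 32.5% and 34.2% of all genes. POLG2, the accessory subunit of POLG, rose 2.1-fold (14.6 to 30.6 CPM, adjusted p = 6.8e-05), and TOP3A, a topoisomerase, rose 1.46-fold (adjusted p = 0.000378). The primase PRIMPOL and the ribonuclease RNASEH1 fell 3.63-fold and 2.7-fold (adjusted p = 1.76e-05 and 3e-05). Of 9 genes for deoxynucleotide supply, 2 rose and 3 fell (median 0.21), which is also near those shares. The kinase DGUOK (log2 fold change 0.37, adjusted p = 0.0125) and SUCLA2 (0.33, adjusted p = 0.0254) rose. SAMHD1, which degrades deoxynucleotides, fell 3.96-fold (adjusted p = 2.12e-07) and ABAT 1.6-fold (adjusted p = 0.00938). SAMHD1 was also lower with SRPIN340 (log2 fold change -0.60, adjusted p = 0.0323).

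The list of nuclear regulators, which also held a mitochondrial enzyme, SIRT3, went both ways, with 7 higher and 8 lower of 20 tested. It had 21 genes and a median of 0.17, and its counts were again near the 32.5% and 34.2% of all genes. PPRC1, a relative of PPARGC1A that also coactivates NRF1, rose 3.75-fold (55.5 and 62.6 CPM in control, 223, 208 and 233 CPM in acidosis, adjusted p = 9.39e-08), against the 1.89-fold fall of PPARGC1A. PPARG, a nuclear receptor, rose 2.94-fold (adjusted p = 7.99e-07). SIRT3, a mitochondrial deacetylase, fell 3.3-fold (adjusted p = 8.8e-06), and PPARD 2.2-fold (adjusted p = 1.82e-05). All 3 matrix protease genes passed as higher, beside 32.5% of all genes, with LONP1, which degrades TFAM among other proteins, at 1.74-fold (adjusted p = 4.47e-05) and CLPX at 1.69-fold (adjusted p = 0.000306). Under total-count scaling 1 of these 3 still passed as higher. With that scaling 55.0% of all genes tested passed as lower, and the share passing as higher was not counted. With SRPIN340, edgeR passed 0 genes of the regulator, protease and replication lists, beside 0.767% of all genes as higher and 1.53% as lower. After adjustment DESeq2 called 3 regulators higher and 1 lower, 1 protease higher and 1 replication gene lower. The shares of all genes called by DESeq2 were not counted.

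**Figure D4:**
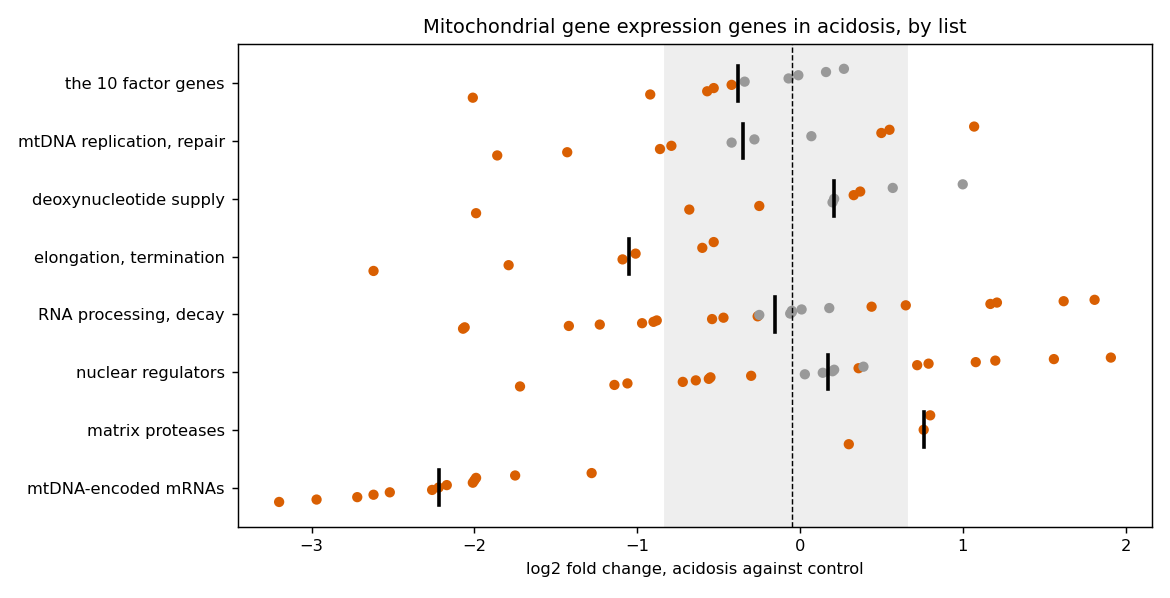
Log2 fold change in acidosis against control (horizontal axis) for the genes tested in each list, 1 point per gene, orange where the adjusted p was under 0.05 and grey where it was not, with a black bar at the list's median. The grey band spans the quartiles of all genes tested (-0.83 to 0.66) and the dashed line their median (-0.05). The medians of the 10 factor genes (-0.38) and of most lists lie inside the band, while those of elongation and termination (-1.05) and of the mitochondrially encoded mRNAs (-2.22) lie to its left and that of the 3 matrix proteases (0.76) to its right.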

How the data were processed

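HEK-293 cells were sequenced as 7 poly(A)-selected libraries (2 control, 2 SRPIN340, 3 acidosis). The authors trimmed the reads with Trimmomatic 0.39 and Trim Galore 0.6.6, ran Salmon 1.5.1 on a GRCh38 transcriptome and used tximport to sum transcripts by gene. What the authors deposited are estimated counts, not normalized between libraries. The tximport option is not given in the sources used here, and the low values have the pattern of counts scaled by transcript length and library size.

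After rounding, 14863 genes passed filterByExpr and entered a single edgeR fit of all 7 libraries (version 4.0.16, R 4.3.3, TMM scaling, quasi-likelihood test, Benjamini-Hochberg adjustment). DESeq2 1.42.0, the tool of the study, was an alternative, beside RLE and total-count scaling, no filter, the 2 groups alone, a replicate block and each library left out. Standard errors were taken from the test statistic. On simulated counts for 14863 genes, edgeR recovered 80 of 100 genes changed by 2 on the log2 scale and 73 of 100 changed by 1 in acidosis against control, and 87 and 68 with SRPIN340, all with the right sign. Only those genes were changed in the simulation, in random directions, whereas 34.2% of all genes passed as lower and 32.5% as higher in acidosis. The simulation therefore says nothing of the scaling between libraries. Within-library ratios used a pseudocount of 0.5 and exact permutation tests (scipy 1.17.1).

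Positions and transcript lengths are from GENCODE release 44, which matched 19977 of 19978 identifiers, and promoter windows from RefSeq. The 10 genes and the lists were chosen with earlier results of these data known. Named beside the 10 were, in each list, the 2 passing genes that rose most and the 2 that fell most in acidosis, any gene passing with SRPIN340, and the extremes of the mitochondrial mRNAs. All pairs of replicates differed by more than sampling noise. The labels give no sequencing batch.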

Additional observations from a re-analysis of the deposited data

How the results depend on the processing

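Over 13 alternatives, the log2 fold changes of the 10 factor genes kept direction and side of the threshold in 107 pairs of gene and alternative in acidosis and in 119 with SRPIN340. In acidosis 8 others newly passed and 6 no longer passed, without a change of sign, and 9 changed sign. Among these 9, only POLG under total-count scaling passed, as lower (edgeR, adjusted p = 0.0201). With SRPIN340 11 changed sign, and neither value passed in any of them. Scaling decided most: by total count only, 9 factor genes were lower both in acidosis against control and in acidosis against SRPIN340, where 55.0% and 56.9% of all genes tested were. TFB2M (-0.31) and POLG (-0.42) then changed sign in acidosis, as did TFB1M (0.01) and TFB2M (0.0044) with SRPIN340. The lists moved too in acidosis under total-count scaling, where 55.0% of all genes tested passed as lower. Replication and repair had 1 higher and 7 lower, deoxynucleotide supply 0 higher and 5 lower, and RNA processing and decay 16 lower. Nuclear regulators had 3 higher and matrix proteases 1 higher. The share of all genes that passed as higher under this scaling was not counted, so these higher counts have no share beside them. TWNK in acidosis was 0.01 with DESeq2 and with RLE scaling.

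The replicate block gave 4 factor genes lower in acidosis, NRF1 missing the threshold (adjusted p = 0.0542), and TWNK at 0.003. Replicate numbers did not mark shared samples: differences between same-numbered libraries correlated at 0.0051 for control with SRPIN340, -0.101 for control with acidosis and 0.0604 for SRPIN340 with acidosis. With 2 pairs this says nothing of a weaker effect.

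Leaving out 1 replicate at a time gave 0 to 1 factor genes higher in acidosis (POLG, without acidosis replicate 2) and 4 to 6 lower. Log2 fold changes in acidosis then ran from -0.22 to 0.08 for TFAM and -0.05 to 0.01 for TWNK. With SRPIN340 they ran from -0.34 to 0.18 for POLRMT, -0.20 to 0.09 for TFAM, -0.36 to 0.24 for TFB1M, -0.11 to 0.04 for TFB2M, -0.02 to 0.20 for POLG, -0.02 to 0.08 for LRPPRC and -0.31 to 0.10 for SLIRP. TK2 in acidosis was -1.44 without acidosis replicate 3, an alternative chosen after seeing the data. Apart from the scaling, the cause of these shifts was not tested. Precision is limited by 2 or 3 samples a group and, for PPARGC1A, by 26 to 50 counts in the acidosis libraries.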

Other observations

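TK2, the thymidine kinase of mitochondria, was a gene of the deoxynucleotide list in which 1 library decided the value. Its level was 11.3 and 16.3 CPM in control, 15.4 and 13.3 CPM with SRPIN340, and 5.58, 4.5 and 52.3 CPM in acidosis. Acidosis replicate 3 stood far above every other library, and the other acidosis libraries lay below all of them. With all libraries the log2 fold change in acidosis was 0.57 (edgeR, adjusted p = 0.562). Without acidosis replicate 3, an alternative chosen after seeing the data, it was -1.44 (edgeR, adjusted p = 0.000759). The cause was not tested.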
